A study of Drosophila melanogaster with 6 samples.

Results

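Antisense RNAs, genes named asRNA because they are transcribed from the strand opposite to another gene, were measured in the brain of Drosophila melanogaster larvae. The deposited table lists 485 such genes among 17137 gene names. Those described here had an FPKM (a fragment count divided by transcript length and sequencing depth), summed over the transcripts of the gene, that averaged 2 or more over the 6 pools. This left 43 antisense RNAs with 86 transcripts of 36294. The level therefore chose the genes, and levels are given as a description with no test. The difference between alcohol and control pools was not used in the choice.

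Antisense RNAs are long RNAs without a known protein product that overlap a gene on the other strand of the same DNA. They are grouped by how they overlap: head to head where the 5′ ends overlap, tail to tail where the 3′ ends overlap, or 1 gene lying inside the other. Individual antisense RNAs in animals and yeast are known to act on their partner through transcription across its promoter, chromatin marks or pairing with its RNA, and for most of them no function is known.

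The larvae were wild-type flies of the Canton S strain. In each group, 3 pools of about 30 brains were dissected from third-instar larvae 6 days after egg-laying. Alcohol larvae grew on cornmeal food with 5% alcohol that was topped up with alcohol every day. Control larvae grew on food to which water was added at melting, and this food was not topped up. Poly-A RNA was sequenced with a stranded kit, so an antisense RNA without a poly-A tail would be missed. The strand setting used to assign reads is not given in the sources used here, and without strand the reads of an antisense RNA and its partner cannot be told apart. In pooled brains, fewer cells that express a gene and less RNA per cell cannot be told apart either.

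Between 2719 and 4244 megabases were aligned per pool. All 16 markers of neurons and glia and all 6 markers of neuroblasts averaged 2 FPKM or more. RNA of neighbouring tissues was also present. Summed over 10 muscle markers, 9 of which averaged 2 FPKM or more, the level was 71.4 to 551 FPKM in control and 110 to 426 FPKM in alcohol pools. Over 10 salivary gland markers it was 14603 to 57541 and 30638 to 46867 FPKM, and over 7 fat body markers 2186 to 6524 and 710 to 4013 FPKM. Of the salivary gland markers, ng1, ng2 and ng3 were higher in every alcohol pool, and the others overlapped between the groups. ng3 was at 86.2, 52.6 and 33.3 FPKM in control and 598, 379 and 338 FPKM in alcohol pools. Larvae were collected by day, and the study states that high alcohol concentrations can delay development. A difference in stage between the groups was not tested. Below, muscle, cuticle and trachea are set beside the antisense RNA of sls, and fat body beside asRNA:CR45213. The part of these tissues in the levels was not tested.

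Few antisense RNAs were at an appreciable level. A mean of 1 FPKM or more was reached by 77 of the 485, and 48 were listed at 0 in every pool. The 3 genes just inside the limit were asRNA:CR45161 (2.06 FPKM), asRNA:CR44093 (2.15 FPKM) and asRNA:CR45000 (2.17 FPKM). Just outside it were asRNA:CR44095 (1.97 FPKM), asRNA:CR44108 (1.94 FPKM) and asRNA:CR43469 (1.94 FPKM). Within the 43, 30 were at 2 FPKM or more in every pool.

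The 43 genes were spread over all major chromosomes, with 4 on 2L, 10 on 2R, 7 on 3L, 9 on 3R, 4 on chromosome 4 and 9 on X. The small chromosome 4 gave 4 of its 10 listed antisense RNAs, whereas chromosome 2L gave 4 of 90. Of the 43 genes, 27 had a spliced transcript and 16 a single exon. A single transcript was listed for 30 of them.

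Transcripts of 2 genes were placed more than once. asRNA:CR45139 on 2R had 28 placed transcripts between 3943429 and 3996486 (dm6), and 22 of them lay outside the annotated gene. Its mean was 9.22 FPKM over all placements and 0.819 FPKM inside the annotated gene. asRNA:CR45213 on 3R had 1 placement inside and 1 outside, with means of 2.43 FPKM in all and 1.47 FPKM inside. By the annotated span alone 41 of the 43 would remain.

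The median mean level of the 43 antisense RNAs was 3.71 FPKM, and the range was 2.06 to 26.7 FPKM. Only 6 averaged 10 FPKM or more, and 28 lay between 2 and 5 FPKM. Summed over the 43, the level was 250 ± 49.8 FPKM (SD, n = 3) in control and 284 ± 25.9 FPKM (SD, n = 3) in alcohol pools. This was 0.0456 ± 0.00777% and 0.0515 ± 0.00904% of all FPKM, and the difference was within the spread between pools.

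asRNA:CR45600, a spliced gene on 3R (15136985 to 15140121, minus strand), was the most abundant. It stood at 25.8, 21.0 and 26.3 FPKM in control pools 1 to 3 and at 28.6, 37.5 and 20.7 FPKM in alcohol pools 1 to 3. The groups overlapped, since alcohol pool 2 was the highest and alcohol pool 3 the lowest of the 6. asRNA:CR45009 on X (23007672 to 23009452, plus strand) followed with 22.4, 19.7 and 32.0 FPKM in control and 24.9, 28.5 and 22.5 FPKM in alcohol pools. Control pools held both its highest and its lowest value.

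asRNA:CR44030, on chromosome 4 (959675 to 962692, plus strand), ranked next, with 27.0, 15.8 and 19.2 FPKM in control and 17.1, 22.4 and 27.3 FPKM in alcohol pools. Its reads were placed on 1 of 2 3-exon transcripts of nearly equal length, 750 and 753 bases. The shorter took all of the level in control pool 2 and was listed at 0 in the other pools, so only the sum of the gene was comparable between pools. asRNA:CR46136, asRNA:CR44291 and asRNA:CR45874 completed the group above 10 FPKM, and their values by pool are given with the alcohol comparison.

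Below them, asRNA:CR44381 on X (2065455 to 2066106, plus strand) was the most even of the 43. It stood at 9.53, 9.75 and 10.3 FPKM in control and 8.44, 9.73 and 8.73 FPKM in alcohol pools, with a coefficient of variation of 7.45%. asRNA:CR42254, on 2R (14769599 to 14771295, minus strand), ranged from 6.21 to 9.38 FPKM in control and from 8.12 to 10.3 FPKM in alcohol pools. It had 3 listed transcripts, of 1, 2 and 3 exons. asRNA:CR42860 on 3L (2088166 to 2089626, plus strand) averaged 7.65 FPKM from pools at opposite extremes.

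**Figure D1:**
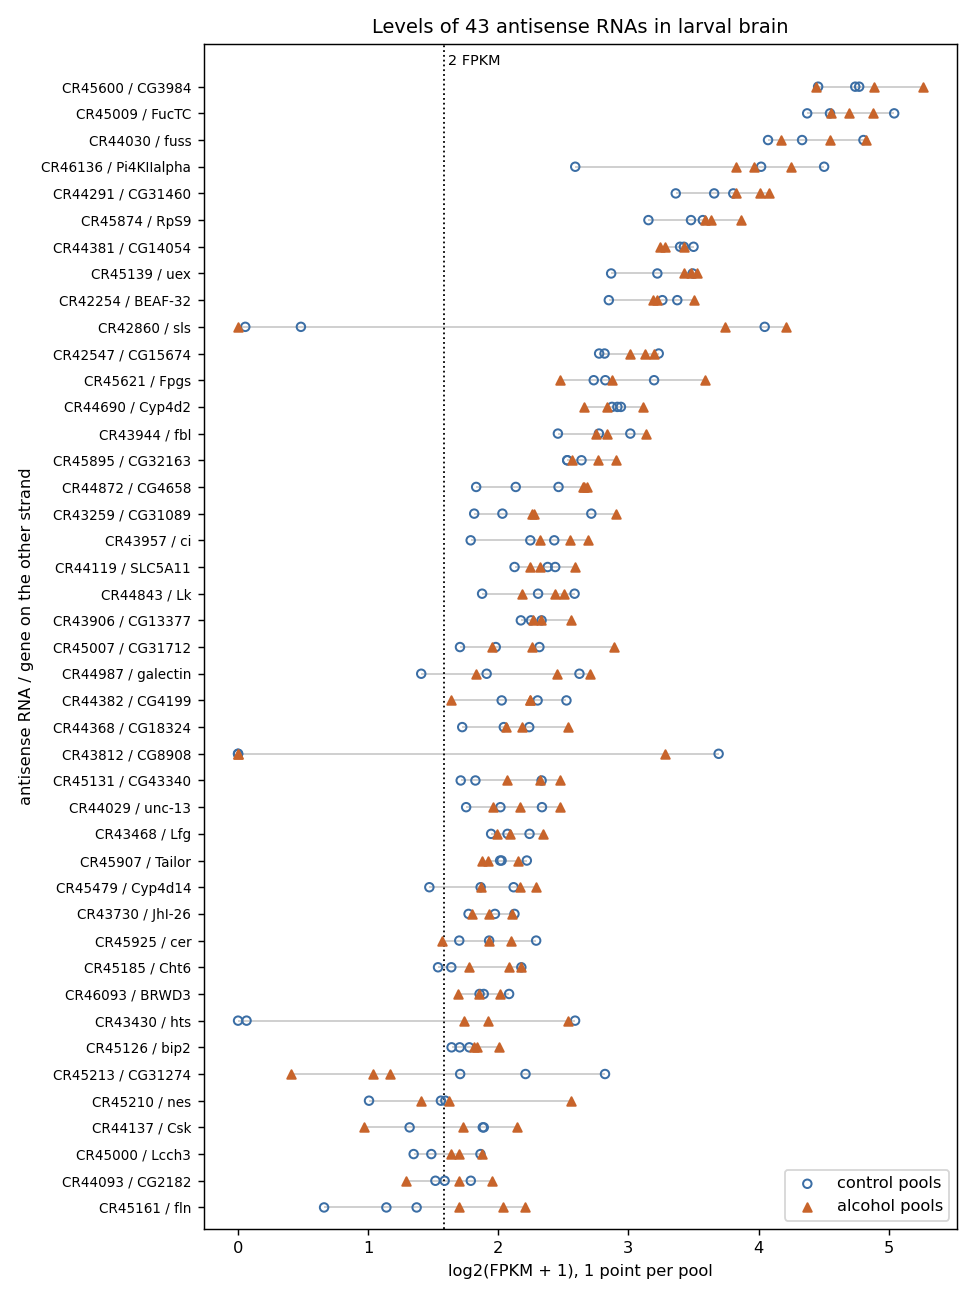
Level of each of the 43 antisense RNAs in the 6 pools on a log2(FPKM + 1) scale, ordered by mean level, with the main partner after the slash, open circles for control and triangles for alcohol pools; the dotted line marks 2 FPKM. Most genes lie between 2 and 5 FPKM with mixed groups, and CR42860, CR43812 and CR43430 spread from about 0 to far above their mean.

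The coefficient of variation over the 6 pools had a median of 23.1% and ranged from 7.45 to 157.75%. Among 5750 other genes in the same range of mean FPKM the median was 14.9%, and among 117 long noncoding RNA genes of 2 FPKM or more it was 26.6%. It was over 50% in 6 antisense RNAs (13.95%), against 10.1% of the other genes. These 6 were CR43812, CR42860, CR43430, CR45213, CR45210 and CR45161. The 5750 other genes were matched only on the end points of the range and not on the levels within it. The medians therefore do not compare genes of equal level.

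asRNA:CR43812 on 2R (20264856 to 20265145, minus strand), a short single-exon gene, was at 11.9 FPKM in control pool 1 and at 8.70 FPKM in alcohol pool 2. It was listed at 0 in the other 4 pools, so 1 pool of each group carried its whole level. The split of a gene between its transcripts also varied between pools. asRNA:CR45895, named after its values were seen, has 2 transcripts of 632 and 636 bases. The shorter one stood at 3.37, 0 and 0 FPKM in control and 2.82, 3.22 and 0.51 FPKM in alcohol pools, while the gene as a whole stayed between 4.77 and 6.49 FPKM. Whether this is a change of isoform or of read assignment between such similar transcripts was not tested.

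Every one of the 43 overlapped a gene on the other strand, and 13 overlapped more than 1, giving 59 pairs. The main partner, the gene with the most overlapping bases, was protein coding in all 43 cases. The 5′ ends overlapped in 17 pairs and the 3′ ends in 8. In 13 pairs the antisense RNA lay inside the partner, and in 5 pairs the partner lay inside the antisense RNA. Exons overlapped exons in all 43 pairs, over a median of 58.6% of the exon bases of the antisense RNA (4.34 to 100%).

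Coding sequence of the partner was covered in 39 pairs, its 5′ UTR in 27 and its 3′ UTR in 20. The 4 pairs without coding overlap were CR45139 with uex, CR43957 with ci and CR44382 with CG4199, which covered 5′ UTR, and CR42860 with sls, which covered 3′ UTR. The fullest overlap was that of asRNA:CR43430, whose 1567 exon bases all lay in exons of hts, 1473 of them in coding sequence. CR44382 is named after its values were seen.

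Levels of antisense RNA and partner ran from far above to far below each other. FPKM is scaled for length, so the levels of both genes can be set side by side. The median ratio of antisense RNA to main partner was 0.258, and the range was 0.00707 to 419. The antisense RNA was above its partner in 12 pairs and under 10% of it in 14. In 10 pairs it was above the partner in all 6 pools, in 30 below it in all 6, and in 3 the order changed between pools. Across the 43 pairs the log2 levels gave Pearson r = −0.18 and Spearman rho = −0.22. Antisense RNAs below 2 FPKM were left out by the choice, and the 6 pools supply both levels.

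Of the 12 partners below their antisense RNA, 8 averaged under 2 FPKM. A partner under that level is always the lower of the pair, because the choice kept antisense RNAs of 2 FPKM or more. asRNA:CR43259, a spliced gene on 3R (25902846 to 25906766, minus strand), had the highest ratio. It stood at 2.52, 3.09 and 5.56 FPKM in control and 3.79, 6.47 and 3.83 FPKM in alcohol pools, while its partner CG31089 averaged 0.0101 FPKM and was above 0 in control pool 2 alone.

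asRNA:CR45009, 67.8 times its partner, overlaps the 3′ end of FucTC, a fucosyltransferase gene that stood at 0.11 to 1.02 FPKM. asRNA:CR44381 lies inside CG14054 and was 21.3 times as abundant, with the partner at 0.25 to 0.97 FPKM. In both pairs every pool had the antisense RNA above the partner.

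asRNA:CR45161 on 3L (19989706 to 19990739, plus strand) lies inside fln. This gene encodes flightin, a myosin-binding protein of flight muscle, and was at 0 to 0.24 FPKM in brain. The antisense RNA was 20.2 times its level. asRNA:CR45600 encloses CG3984 (0.23 to 3.91 FPKM) and was 19.1 times as abundant. asRNA:CR42547 on 2R (21631421 to 21634040, minus strand), at 5.84 to 8.40 FPKM, was 9.45 times as abundant as CG15674 (0.14 to 2.46 FPKM).

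asRNA:CR43812, with 2 pools above 0, averaged 6.74 times its partner CG8908, which was at 0.38 to 0.76 FPKM in every pool. The order of this pair changed with the pool. Smaller ratios were found for asRNA:CR44030 with fuss, a gene of the Ski/Sno family of transcription regulators (2.89, partner at 5.77 to 9.73 FPKM), and for asRNA:CR42860 with sls (2.83). asRNA:CR45479 on X (2173480 to 2175855, plus strand) was 2.198 times as abundant as Cyp4d14, a cytochrome P450 gene at 1.17 to 1.70 FPKM. Its 3′ end also overlaps that of another of the 43, asRNA:CR44690, by 39 bases, and CR44690, named after its values were seen, was at 5.33 to 7.64 FPKM.

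**Figure D2:**
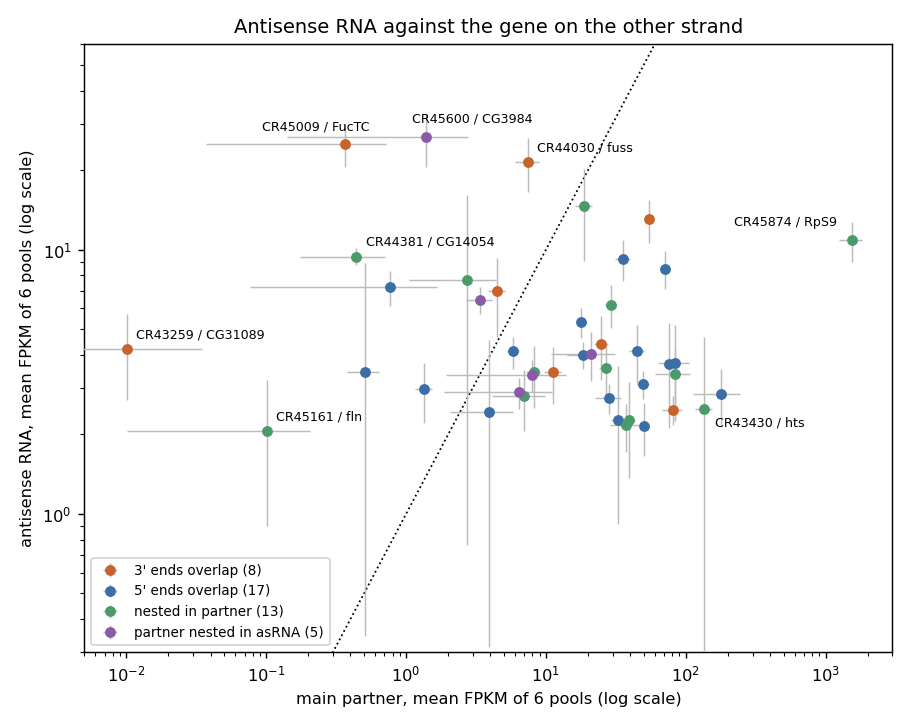
Mean FPKM over 6 pools of each antisense RNA (vertical, log scale) against its main partner (horizontal, log scale), with bars of 1 SD over the pools, cut where they reach 0; colours give the kind of overlap and the dotted line equal levels. The 12 points above the line have partners under 10 FPKM, and RpS9 lies farthest to the right at 1532 FPKM.

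At the other end, asRNA:CR45874 lies inside RpS9, which encodes a protein of the small ribosomal subunit. The antisense RNA averaged 10.8 FPKM and RpS9 1532 FPKM, the lowest ratio of the 43. asRNA:CR43430 was at 0.0185 of the level of hts, which encodes the Drosophila adducin and was at 108 to 163 FPKM. asRNA:CR45139, with the limit on its placements given above, was at 0.258 of uex, a gene of a family of magnesium transporters (30.7 to 41.7 FPKM). Among the 3 genes nearest the limit, CR44093 was at 0.043 of CG2182 (46.1 to 53.5 FPKM).

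The main partner was in a list of neural, signalling or chromatin genes in 4 pairs, and in all 4 it was well expressed. asRNA:CR42254 overlaps the 5′ end of BEAF-32, which encodes a chromatin boundary protein. BEAF-32 was at 65.7 to 76.3 FPKM, and the ratio was 0.120. asRNA:CR43957 on chromosome 4 (56497 to 63124, plus strand), at 2.45 to 5.44 FPKM, overlaps the 5′ end of ci, the transcription factor of Hedgehog signalling, at 40.0 to 54.4 FPKM.

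asRNA:CR44029, also on chromosome 4 (879374 to 884752, plus strand), was at 2.37 to 4.55 FPKM. It lies inside unc-13, which primes synaptic vesicles for release and was at 63.3 to 122 FPKM. asRNA:CR45000 on X (15926787 to 15927082, minus strand), at 1.55 to 2.67 FPKM, lies inside Lcch3, a subunit gene of ligand-gated chloride channels, at 29.7 to 49.5 FPKM. None of these 4 antisense RNAs was called between alcohol and control, and the log2(FPKM + 1) differences, adjusted for library size, were 0.14, 0.43, 0.38 and 0.35 in this order (limma, the last 2 without the variance filter).

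Some antisense RNAs also overlap the span of a gene on their own strand, where strand does not separate the reads. All 985 bases of asRNA:CR44872 lie within the span of CG5850 (19.2 FPKM), and asRNA:CR44843, named after its values were seen, lies within that of CG34039 (28.7 FPKM). asRNA:CR45213 overlaps CG3678 (33.2 FPKM). In CR45600 the overlap with CG6912 (50.3 FPKM) was 20 of 2914 exon bases.

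The comparison of alcohol with control pools asked whether antisense RNAs differ in the brain of larvae that grew up on alcohol. The rule of the study was an unadjusted p under 0.05 and more than a 2-fold difference. Here 2-fold means a difference of 1 on the log2(FPKM + 1) scale, which at low levels is not a 2-fold ratio of FPKM. By this rule 3 of the 22 that were tested among the 43 were called, asRNA:CR43430, asRNA:CR45161 and asRNA:CR46136. All 3 were higher in alcohol pools, and none was called lower. Over all genes 101 of 8247 were called, 1.22%, and 97 of these were higher (1.18%) against 4 lower (0.0485%). No gene had an adjusted p under 0.05, although 201 genes (2.44%) had an unadjusted p under 0.05. These included 7 of the 22 tested antisense RNAs. In limma's Benjamini-Hochberg adjustment the smallest value among antisense RNAs was 0.997.

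Some of the 43 entered through 1 group. CR43430, CR45161, CR45210 and CR45000 averaged under 2 FPKM in control and CR45213 in alcohol pools, so for these the choice itself favours a difference. CR45210 is named after its values were seen.

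The test covered 22 of the 43, because 21 did not pass the filter of a variance above 1. Without that filter the same 3 were called among all 43, against 0.641% of 15914 genes, which include every gene with a mean above 0. With genes of 1 FPKM or more, a set closer in level, the same 3 were called, against 107 of 9956 genes. The direction of calls depended on the scaling and on the library-size covariate, 40.3% of whose variance over pools was explained by treatment. Without it the calls over all genes were 45 higher and 35 lower, and a single antisense RNA, asRNA:CR45213, was called, as lower. With rescaling to equal totals, which kept a covariate and tested 10224 genes, the split was 73 to 201. With quantile normalization and no covariate it was 56 to 42.

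asRNA:CR43430 on 2R (19399769 to 19401335, plus strand) stood at 5.02, 0.046 and 0 FPKM in control and 2.79, 4.81 and 2.33 FPKM in alcohol pools. Control pool 1 was the highest of the 6, control pools 2 and 3 were at or near 0, and the groups overlapped. Alcohol was higher by 2.42 ± 0.56 (SE) on the log2(FPKM + 1) scale with the covariate (limma, adjusted p = 0.997) and by 1.18 without it, where it was not called. It remained called when any 1 pool was left out, but each of these fits kept the covariate. The group means of CR43430 were 1.69 FPKM in control and 3.31 FPKM in alcohol pools. It therefore reached the limit of 2 FPKM only through the alcohol pools, and the choice itself favoured a higher level there. Leaving out a pool does not test this. hts was at 121, 131 and 163 FPKM in control and 138, 150 and 108 FPKM in alcohol pools.

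asRNA:CR45161 was at 1.59, 0.581 and 1.204 FPKM in control and at 2.25, 3.61 and 3.11 FPKM in alcohol pools. Every alcohol pool was above every control pool. The group means were 1.12 and 2.99 FPKM, so it was among the 43 only through the alcohol pools. The log2(FPKM + 1) difference was 1.01 ± 0.32 (SE) with the covariate (limma, adjusted p = 0.997). The plain difference was 0.92, with an exact two-sided permutation p = 0.1, the smallest that 3 pools against 3 can give. Its value lay close to the 2-fold limit. It was 0.82, 0.75 or 1.29 without control pool 1, 2 or 3 and 0.91 or 0.99 without alcohol pool 2 or 3, and in each of these fits it was no longer called.

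asRNA:CR46136 on 3R (5560472 to 5561573, plus strand) lies inside Pi4KIIalpha, which encodes a phosphatidylinositol 4-kinase. It was at 21.7, 15.2 and 5.03 FPKM in control and at 17.97, 13.2 and 14.6 FPKM in alcohol pools. The alcohol pools lay inside the range of the control pools, of which pool 3 was low. In FPKM the ratio of the group means, alcohol to control, was 1.09. The difference of 1.12 ± 0.39 (SE) on the log2(FPKM + 1) scale with the covariate (limma, adjusted p = 0.997) was 0.31 without it. Leaving out control pool 3 gave 0.26, and the call was also lost without control pool 1 (1.17), alcohol pool 1 (1.26) or alcohol pool 2 (1.18). Pi4KIIalpha was at 15.6 to 22.1 FPKM in the 6 pools.

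**Figure D3:**
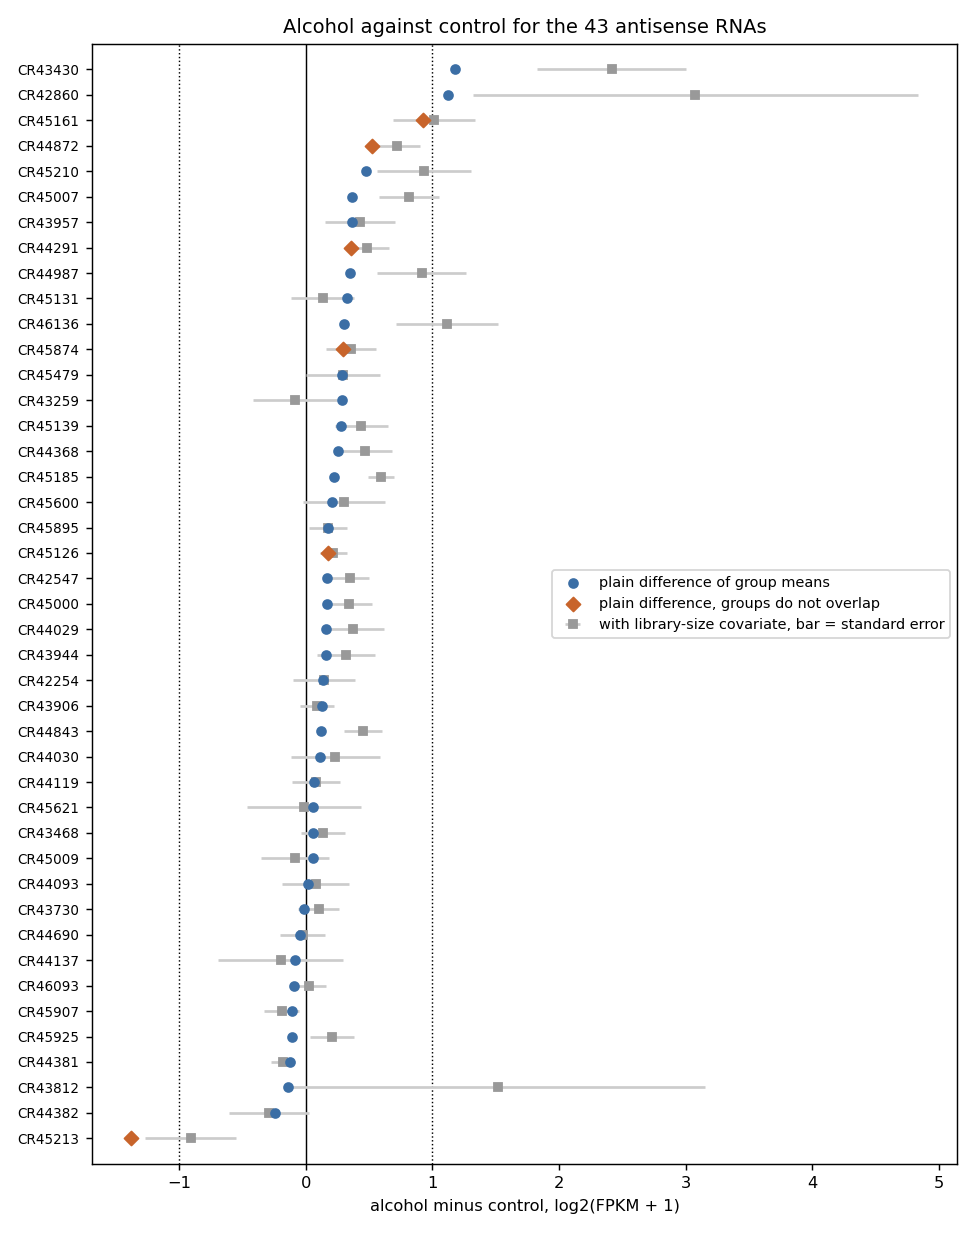
Alcohol minus control for the 43 antisense RNAs on the log2(FPKM + 1) scale, ordered by the plain difference of group means (circles, or diamonds where the groups do not overlap), with the fitted difference (no variance filter) and its standard error in grey. Dotted lines mark a difference of 1 on this scale. Of the 43 plain differences 38 lie within 0.5 of 0, and the library-size covariate moves the values of CR42860, CR43430, CR46136 and CR43812 most visibly to the right, the last of them across 0.

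Non-overlapping groups were found for 6 of the 43 (13.95%), with 5 higher and 1 lower in alcohol. Among 9159 genes of 2 FPKM or more the groups did not overlap in 7.01%, with 2.00% higher and 5.01% lower. The 5 were CR44291, CR45874, CR44872, CR45161 and asRNA:CR45126, which is named after its values were seen, and the 1 was CR45213. In each, the exact permutation p was 0.1. CR45161 and CR45213 averaged 2 FPKM only through 1 group, so for them the choice itself favoured groups that do not overlap.

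asRNA:CR44291 on 3R (8562828 to 8563798, minus strand) overlaps the 3′ end of CG31460. It was at 12.98, 9.29 and 11.6 FPKM in control and 15.9, 13.2 and 15.1 FPKM in alcohol pools. The lowest alcohol pool was just above the highest control pool, and the log2(FPKM + 1) difference was 0.49 ± 0.20 (SE), with an unadjusted p in limma above 0.05. CG31460 went from 56.8, 53.8 and 62.0 FPKM in control to 50.7, 51.7 and 54.5 FPKM in alcohol pools, with overlapping groups.

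asRNA:CR45874 on 3L (9510017 to 9510889, plus strand) was at 10.9, 7.90 and 10.2 FPKM in control and 11.0, 13.6 and 11.4 FPKM in alcohol pools. Control pool 1 and alcohol pool 1 differed by little, and the log2(FPKM + 1) difference was 0.36 ± 0.22 (SE), likewise with an unadjusted p above 0.05. RpS9 was at 1695, 1335 and 1160 FPKM in control and 1877, 1342 and 1782 FPKM in alcohol pools.

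asRNA:CR44872 on 2L (9959248 to 9960232, minus strand) overlaps the 3′ end of CG4658. It was at 4.51, 2.56 and 3.39 FPKM in control and 5.42, 5.27 and 5.32 FPKM in alcohol pools. The alcohol pools were nearly equal and all above the control pools, and the log2(FPKM + 1) difference was 0.72 ± 0.21 (SE), with an unadjusted p under 0.05 but below the 2-fold limit. CG5850, on the same strand, was at 18.3 to 20.7 FPKM in control and 16.5 to 20.3 FPKM in alcohol pools, and CG4658 at 20.6 to 27.1 and 25.0 to 28.4 FPKM. asRNA:CR45126, whose variance was too low for the filter, was at 2.12 to 2.43 FPKM in control and 2.51 to 3.01 FPKM in alcohol pools.

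asRNA:CR45213 (16988566 to 16994041 over both placements, minus strand) was the antisense RNA of the 43 that was lower in every alcohol pool. Its group means were 3.98 and 0.874 FPKM, so it was among the 43 only through the control pools. It stood at 6.06, 3.62 and 2.26 FPKM in control and at 1.06, 0.324 and 1.24 FPKM in alcohol pools. In FPKM the ratio of the group means, alcohol to control, was 0.220. The log2(FPKM + 1) difference was −0.91 ± 0.35 (SE) with the covariate, short of the limit of 1 on that scale, and −1.38 without it, where it was called. It was also called without alcohol pool 3 (−1.03), with rescaling to equal totals (−2.01) and with quantile normalization (−1.33), and was −0.46 with a replicate block and the covariate. Inside the annotated placement alone the values were 3.48, 2.31 and 1.61 FPKM and 0.694, 0.130 and 0.587 FPKM, and the groups still did not overlap.

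Fat body RNA also differed between the pools. The sum of the 7 fat body markers, all of which averaged 2 FPKM or more, was 6524, 4751 and 2186 FPKM in control and 1479, 710 and 4013 FPKM in alcohol pools, with overlapping groups. Fbp1, which encodes a fat body receptor for larval storage protein, was at 1106, 1007 and 513 FPKM in control and 139, 69.2 and 400 FPKM in alcohol pools, without overlap and in the same order of pools as CR45213. Fbp1 was the only marker of the 7 without overlap. Lsp1beta and Lsp1gamma were highest of all pools in alcohol pool 3, at 958 and 847 FPKM. The part of fat body in the level of CR45213 was not tested.

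Both protein-coding genes on the opposite strand at this locus were lower in every alcohol pool too. CG31274 was at 7.27, 4.36 and 3.75 FPKM in control and 2.57, 1.95 and 3.57 FPKM in alcohol pools, and the groups did not overlap. MESK4 was at 19.8, 13.8 and 7.38 FPKM in control and 2.46, 4.02 and 7.15 FPKM in alcohol pools, again without overlap. Neither was called with the covariate (log2 differences −0.41 ± 0.31 and −1.11 ± 0.59, SE). lncRNA:CR45221, also on the opposite strand, was at 0.0752 to 0.133 FPKM in control and 0 to 0.174 FPKM in alcohol pools. CG3678, on the same strand as the antisense RNA, was at 29.8 to 36.7 FPKM in control and 31.7 to 34.5 FPKM in alcohol pools.

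**Figure D4:**
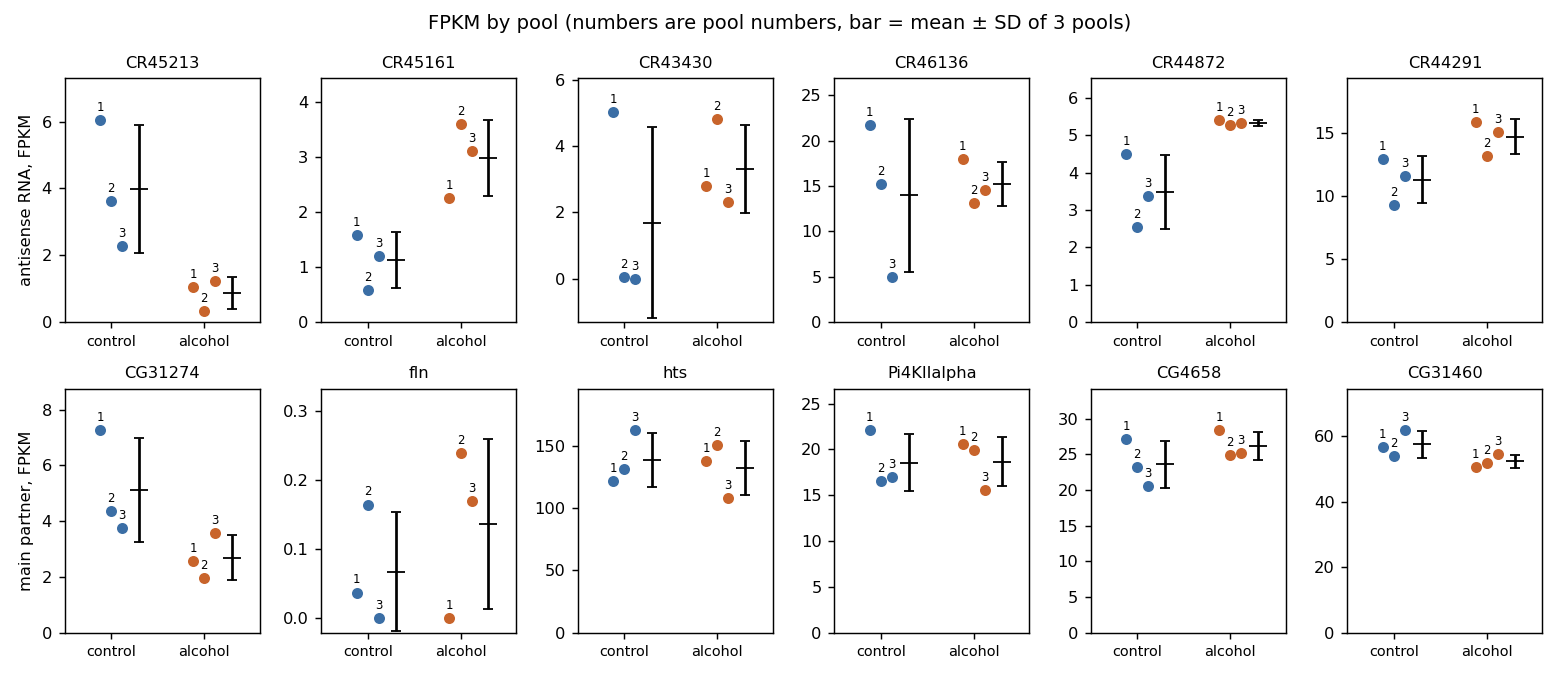
FPKM by pool of 6 antisense RNAs (upper panels) and their main partners (lower panels), with pool numbers at the points and bars for mean ± SD of 3 pools. CR45213 is below its control values in every alcohol pool, CR45161, CR44872 and CR44291 are above theirs, and CR43430 and CR46136 overlap between the groups.

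Over the 43 together, the plain log2(FPKM + 1) difference was above 0 in 33 and had a median of 0.17. Over the 9159 genes of 2 FPKM or more it was above 0 in 42.2% and the median was −0.03. With the covariate and no filter it was above 0 in 34 antisense RNAs, with a median of 0.30, against 47.3% and −0.01 over these genes. The count above 0 was lowest, 27 with a median of 0.09, when control pool 2 was left out, and highest, 36 with a median of 0.29, without control pool 1. Plain differences ranged from −1.38 to 1.18, and 38 of 43 were within 0.5 of 0. These counts include CR43430, CR45161, CR45210 and CR45000, which averaged 2 FPKM only through the alcohol pools. They also include CR45213, which did so only through the control pools. All genes were measured in the same 6 pools and are not independent of each other.

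asRNA:CR42860 had the largest fitted difference and was not called. It lies in the span of sls, which encodes a titin-like protein of the muscle sarcomere, and covers its 3′ UTR. It stood at 15.5, 0.039 and 0.398 FPKM in control and at 17.6, 0 and 12.4 FPKM in alcohol pools. Control pool 1 and alcohol pools 1 and 3 were high, the other 3 pools were at or near 0, and both groups held both kinds. The log2(FPKM + 1) difference was 3.08 ± 1.63 (SE) with the covariate and 1.12 without it. Without alcohol pool 2 it was 4.23 ± 0.86 (SE) and was called.

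The pools with CR42860 were those with the most muscle RNA. The sum of the 10 muscle markers was 551, 71.4 and 80.2 FPKM in control and 426, 110 and 393 FPKM in alcohol pools. The same pools were highest for the sum of 9 cuticle and trachea markers, of which 6 averaged 2 FPKM or more. This sum was 435, 142 and 125 FPKM in control and 353, 209 and 251 FPKM in alcohol pools. Among its markers, Lcp1 and Lcp4 were higher in alcohol pool 2 than in alcohol pool 3. Act57B, a muscle actin gene, was at 163, 19.0 and 24.5 FPKM in control and 129, 38.7 and 120 FPKM in alcohol pools. sls, itself among the 10 muscle markers, ran otherwise, with 2.23, 5.87 and 2.78 FPKM in control and 2.58, 1.34 and 1.44 FPKM in alcohol pools. It was highest in control pool 2 and lowest in alcohol pool 2, in both of which CR42860 was at or near 0. The part of muscle, or of cuticle and trachea, in the level of CR42860 was not tested beyond these values.

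The split of CR42860 between its listed transcripts also differed between the high pools. In control pool 1 its single-exon transcript was at 15.5 FPKM and both spliced transcripts were listed at 0. In alcohol pools 1 and 3 the longer spliced transcript led, at 10.5 and 7.07 FPKM, followed by the other spliced one at 4.24 and 4.13 FPKM. The single-exon transcript was then at 2.86 and 1.18 FPKM.

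**Figure D5:**
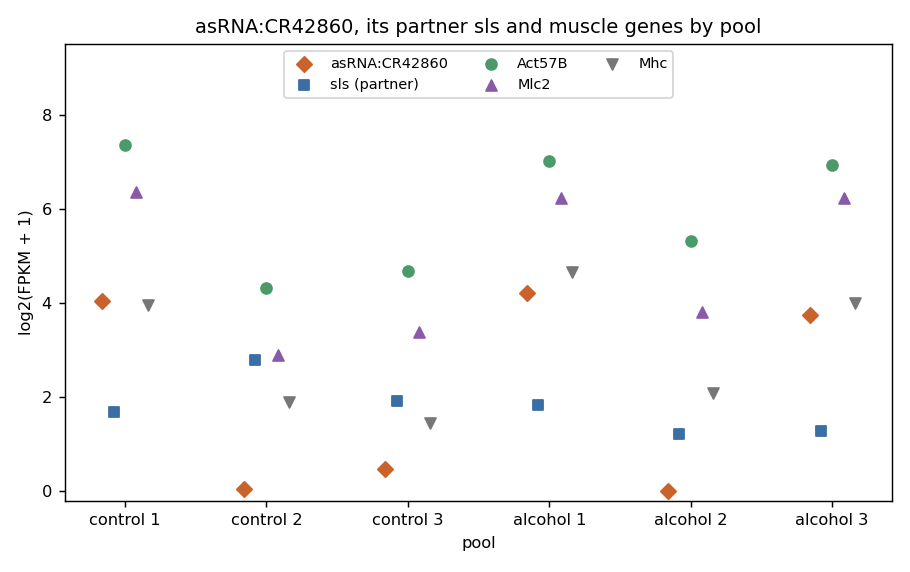
log2(FPKM + 1) of asRNA:CR42860, its partner sls and the muscle genes Act57B, Mlc2 and Mhc in each of the 6 pools. The antisense RNA and the muscle genes are high in control pool 1 and alcohol pools 1 and 3 and low in the other pools, whereas sls is highest in control pool 2.

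To ask whether antisense RNA and partner moved apart, the difference of their log2(FPKM + 1) in the same pool was fitted for every opposite-strand pair of genes with means of 2 FPKM or more. Among 46 such pairs, from 38 of the 43 antisense RNAs, 3 were called, and in all 3 the antisense RNA gained on the partner in alcohol pools. Over all pairs 24 of 1556 were called, 1.54%, and none had an adjusted p under 0.05, with 64 (4.11%) at an unadjusted p under 0.05. Of the 46, 7 were at an unadjusted p under 0.05. The smallest adjusted p in limma among the 46 was 0.977. The ratio was higher in alcohol in 34 of the 46, with a median change of 0.31 on the log2 scale. Pairs with 1 antisense RNA were taken as antisense RNA minus partner, and other pairs as minus-strand minus plus-strand gene. The sign of the other pairs is thus arbitrary, and the median over all pairs, −0.0048, is no baseline for direction. Without the covariate none of the 46 was called.

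The largest called change was that of asRNA:CR43430 against hts, 2.59 ± 0.59 (SE) on the log2 scale (limma, adjusted p = 0.977). Both genes, whose values by pool are given above, overlapped between the groups. It was 1.25 without the covariate and, at 2.50, was no longer called without control pool 3. CR43430 reached the limit of 2 FPKM only through the alcohol pools, so the choice itself favoured a higher ratio there.

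asRNA:CR45185 on X (10044909 to 10048156, minus strand) lies inside Cht6, a chitinase gene. It was at 3.52, 2.11 and 1.90 FPKM in control and 3.51, 3.24 and 2.43 FPKM in alcohol pools, and Cht6 was at 4.65, 12.3 and 7.80 FPKM in control and 6.31, 4.70 and 6.00 FPKM in alcohol pools. Both genes overlapped between the groups, and control pool 2 was the highest for Cht6. The ratio changed by 1.34 ± 0.42 (SE; limma, adjusted p = 0.977), and by 0.62 without the covariate. It was not called without control pool 2 (0.94) or alcohol pool 2 (1.18).

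The remaining call was asRNA:CR45007 on 2L (9937232 to 9938833, plus strand) against Apf, a hydrolase of diadenosine tetraphosphate. This gene is not its main partner, and the pair is named after its values were seen. CR45007 was at 3.98, 2.95 and 2.26 FPKM in control and 6.42, 3.78 and 2.87 FPKM in alcohol pools, and Apf at 31.1 to 38.2 and 28.1 to 33.1 FPKM. Both overlapped between the groups, and alcohol pool 1 was the highest for the antisense RNA. The ratio changed by 1.07 ± 0.30 (SE; limma, adjusted p = 0.977), by 0.70 without alcohol pool 1 and by 1.06 without control pool 3, and in both of these fits it was not called. It was 0.47 without the covariate, 0.69 with rescaling and 0.11 with a replicate block and the covariate.

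In the pair of CR44291 and CG31460 the ratio changed by 0.67 ± 0.17 (SE), with the antisense RNA above its control values in every alcohol pool. In that of CR45213 and CG31274, both lower in alcohol, the ratio changed by −0.50 ± 0.19 (SE). Both had an unadjusted p under 0.05, and neither reached a difference of 1. CR45213 reached 2 FPKM only through the control pools, so for it the choice itself favoured a lower ratio in alcohol pools. Among the partners of the 4 listed pairs, BEAF-32, ci, unc-13 and Lcch3 were not called (log2 differences 0.02, −0.07, 0.01 and −0.17). Of these, ci was lower in every alcohol pool without overlap, at 54.4, 47.1 and 42.9 FPKM in control and 41.8, 40.8 and 40.0 FPKM in alcohol pools.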

How the data were processed

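RNA was measured in 6 pools, 3 control and 3 alcohol, grouped from the sample labels. The authors trimmed reads with Trimmomatic 0.39, aligned them to dm6 with HISAT2 2.2.0 and quantified transcripts with StringTie 2.1.4. They deposited 1 table with the FPKM and the read coverage (signal) of each transcript in each pool. The coverage was used here only to obtain aligned bases per pool. A second deposited table holds the authors' own comparison (a fold change, a p-value and a q-value per transcript) and was not used. The strand setting of alignment and quantification is not given in the sources used here.

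FPKM was summed over the transcripts of a gene name. Levels were compared on log2(FPKM + 1), with a pseudocount of 1, in limma 3.58.1 (R 4.3.3). The model held treatment and the library-size covariate of Ballgown, the sum of log2(FPKM + 1) below the 75th percentile of each pool. It was fitted to every gene with a variance of FPKM above 1 and, for ratios, to every opposite-strand pair with both means at 2 FPKM or more. A call required an unadjusted p under 0.05 and an absolute log2 difference above 1, the thresholds of the study, and Benjamini-Hochberg values were taken over the whole table. The fits were tested on simulated data. Overlaps used the spans in the deposited table, and exons, coding sequence and UTRs came from the Ensembl annotation of the same assembly. Python 3.11.15, pandas 2.3.3, numpy 2.4.6, scipy 1.17.1 and matplotlib 3.10.9 were used.

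The genes named are the 10 highest antisense RNAs, the 10 with the highest ratio to their partner, every call, the non-overlapping genes with the smallest p, the 3 on each side of 2 FPKM, and those whose partner was in a list of neural or regulatory genes. Exceptions are stated in the text. The antisense RNAs and the lists were chosen with earlier results of these data known. The alternatives were no covariate, a replicate block, a pseudocount of 0.1, other filters on low values, rescaling to equal totals (TPM), quantile normalization, an ordinary F-test, leaving out each pool, other minimum levels and partners chosen by exon overlap. Summing only the transcripts inside the annotated span of a gene was added after seeing the data. No read counts were used, so precision is given by the spread between pools alone.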

Additional observations from a re-analysis of the deposited data

How the results depend on the processing

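In place of 3 antisense RNAs, 1 was called without the covariate and 1 with the replicate block and no covariate, in both cases CR45213 and none of the 3. The block with the covariate called 1 and an ordinary F-test 1, both times CR43430, and a pseudocount of 0.1 called 5. Rescaling to equal totals and quantile normalization each called CR45161 and CR45213 and lost CR43430 (2.40 and 1.27) and CR46136 (0.31 and 0.30). In place of 3 ratios, 0 were called without the covariate, 0 with the block and no covariate, 0 with both genes at 5 FPKM or more, 0 with quantile normalization, 1 with an ordinary F-test and 5 with a pseudocount of 0.1. With rescaling all 3 ratios lost their call, and the 2 called were CR45213 to CG31274 (−1.03) and CR45600 to CG3987 (2.19). Leaving out 1 pool gave 2 to 4 called antisense RNAs and 2 to 4 called ratios. A minimum of 1 or 5 FPKM would give 77 or 15 antisense RNAs. Over all genes the block with the covariate called 363 higher and 21 lower. Same-numbered pools were not paired by any source, and their deviations correlated at −0.12, −0.47 and −0.57. The differences given for CR46136, CR44291, CR45874, CR44872, CR43430, CR45213 and CR45161 and the 3 called ratios kept their sign in every alternative run. Of these alternative values, 98 kept their side of the thresholds, 44 lost a call and 5 gained one. The causes were not tested. With 3 pools a group no exact test can go below 0.1, and most of the 43 lie at 2 to 5 FPKM, where read counts were not used.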
